A study of Arabidopsis thaliana with 48 samples.

Results

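Growth on salt was described here in Arabidopsis seedlings of a line labelled rap2.3, which the labels give as an insertion mutant (T-DNA) in the gene RAP2.3 (also ERF7), through 3 libraries of seedlings raised on NaCl (S) and 3 libraries of seedlings raised without it (CT). These 6 libraries were chosen by their labels from a series of 48. Sodium chloride acts on plants both by lowering the water potential outside the root and by letting sodium and chloride build up in the tissue. Plants are known to meet it with ion pumps and channels that keep sodium out of the shoot, with abscisic acid, the hormone of water deficit, with proline, raffinose sugars and hydrophilic LEA proteins, and with suberin barriers in the root endodermis. RAP2.3 is a member of the group VII ethylene response factors, transcription factors known for turning on low-oxygen genes.

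S seedlings of the rap2.3 line were grown for 6 days on Murashige and Skoog medium with 50 mM NaCl at 21 °C under light of 50 µmol per square metre and second. CT seedlings of the same line were 6 days old and grown at the same temperature and light with 0 mM NaCl. WT in the series is Col-0 and had S and CT groups raised in the same ways. Further groups of both genotypes were exposed for 1.5 h to excess light (EL, 700 µmol), to heat (HS, 33 °C) or to both (EL+HS), each from salt-grown and from salt-free seedlings. All 16 groups had 3 libraries, each made from a pool of whole seedlings, so root and shoot RNA were measured together, and a larger root, more cells of a type and more RNA per cell cannot be told apart. The labels name a single insertion allele, so whatever else that line carries cannot be told apart from the insertion.

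The targeted gene went against the label. RAP2.3 stood at 259, 257 and 333 FPKM in the S libraries, against 309.7, 355 and 283 FPKM in the CT libraries, all labelled rap2.3. It stood at 54.7, 58.8 and 71.4 FPKM in the WT S libraries, against 64.6, 53.0 and 57.8 FPKM in the WT CT libraries. In the fit over all 48 libraries the level in rap2.3-labelled libraries exceeded that in WT by 2.18 ± 0.18 (SE) on the log2 scale under salt (limma, adjusted p = 2.6e-10) and by 2.41 ± 0.18 (SE) without it (adjusted p = 2.6e-11). An FPKM value sums reads over the whole gene and does not show whether a full transcript was made. The line is therefore called by its label, and no loss of RAP2.3 function is assumed. Between S and CT, RAP2.3 itself did not pass the test, at a log2 difference of -0.16 ± 0.19 (SE), adjusted p = 0.58.

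The values are FPKM, fragments scaled to transcript length and to each library's mapped total, so levels can be set side by side between genes but total depth is unknown. They summed to 773787 to 787719 per S library and 790984 to 822875 per CT library, and 18976 to 19395 genes reached 1 FPKM in S libraries, against 18094 to 18545 in CT libraries. Pearson correlations of log2(FPKM + 1) over the genes tested were 0.970 to 0.978 within S, 0.973 to 0.980 within CT and 0.919 to 0.963 between the groups. The first principal component held 64.6% of the variance and put all S libraries on one side and all CT libraries on the other, with replicate 3 of each group nearest the middle. Differences below are S minus CT in mean log2(FPKM + 1), from limma with Benjamini-Hochberg adjustment over all genes tested.

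Growth on salt changed many genes. Those called under both scalings and at least 2-fold apart in the values as deposited were mostly higher under salt. Of 20592 genes tested, 4329 were higher (21.0%) and 1075 lower (5.22%) in S than in CT at an adjusted p under 0.05. The median gene was higher by 0.18 on the log2 scale. After each library was divided by its size factor (1.12 to 1.16 for S, 0.929 to 1.03 for CT) the median difference was near 0, and 2531 genes were higher and 2219 lower, so the share of higher genes among those called was 53.3% in place of 80.1%. Genes called in the same direction under both scalings numbered 2531 higher (12.3%) and 1074 lower (5.24%) of 20501 tested in both. Of these, 1407 were higher and 203 lower by at least 2-fold as deposited, a scale on which the median gene was itself higher. In 37.4% of the genes tested every S library lay above every CT library, and in 11.3% every S library lay below. "Rose" and "fell" are used below only of genes called under both scalings. With a library left out, 1580 to 2461 of all genes rose and 617 to 1018 fell. Without the second S library 3310 genes were called as deposited in place of 5404, and without the second CT library 3449.

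LSU1 and ATSDI1, both known from sulfur shortage, were among the 12 largest increases. LSU1 (AT3G49580), a small protein gene switched on by low sulfur, had 58.4, 67.7 and 35.7 FPKM in the S libraries, against 1.19, 1.37 and 2.26 FPKM in the CT libraries (log2 difference 4.37 ± 0.35 (SE), adjusted p = 1.7e-07). ATSDI1 (AT5G48850), which holds down glucosinolate synthesis when sulfur is short, had 56.8, 54.2 and 32.6 FPKM under salt, against 1.87, 2.79 and 3.51 FPKM under control (log2 difference 3.70). No S library overlapped a CT library for either gene. MRN1 (AT5G42600), the marneral synthase of a root triterpene pathway, had 27.3, 41.4 and 19.2 FPKM under salt, against 0.99, 0.563 and 0.965 FPKM under control, with a log2 difference of 3.99. The cold- and dehydration-responsive KIN1 (AT5G15960) and the iron transporter IRT1 (AT4G19690), both described further below, were also among the 12 largest increases.

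The other 7 of the 12 largest increases were mostly genes of lipid binding and secreted proteins. LTP3 (AT5G59320), a lipid transfer protein, had 14.5, 20.6 and 7.31 FPKM in the S libraries, against 0.352, 0 and 0.0929 FPKM in the CT libraries. AT4G33550 and AT2G37870, annotated as lipid-transfer or 2S albumin relatives, had log2 differences of 3.61 and 4.36. AT2G16005, annotated with an MD-2-related lipid recognition domain, had 110.3, 209 and 87.1 FPKM under salt, against 16.01, 3.13 and 15.3 FPKM under control (log2 difference 3.60). AT5G33355, a defensin-like gene, had 41.1, 32.8 and 76.8 FPKM under salt, against 0.0715, 0.884 and 0.705 FPKM under control. AT5G37990, a methyltransferase relative, differed by 3.64. AT5G04120, of the phosphoglycerate mutase family, had 28.8, 87.8 and 20.1 FPKM under salt, against 0.0534, 0.393 and 0 FPKM under control. It overlaps another annotated gene, and since the strand used in counting is not given in the sources used here, reads of overlapping genes cannot be told apart. All 12 were also called higher under salt in WT and over the light and heat treatments.

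Among the 12 largest decreases, BT1 (AT5G63160), a BTB-TAZ scaffold protein gene of nitrogen and sugar signalling, had 44.2, 38.2 and 70.5 FPKM in the S libraries, against 265, 288 and 223 FPKM in the CT libraries (log2 difference -2.36 ± 0.49 (SE), adjusted p = 0.0014). SEN1 (AT4G35770), a dark-induced gene, had 56.8, 39.6 and 159.6 FPKM under salt, against 346, 349.8 and 215 FPKM under control, a log2 difference of -2.04. MIOX4 (AT4G26260), a myo-inositol oxygenase, had 1.97, 1.37 and 5.64 FPKM under salt, against 18.3, 15.6 and 10.4 FPKM under control. For SEN1 and MIOX4 the third S library lay nearest to the CT libraries, without overlapping them. AT3G54830, an amino acid transporter relative, had 8.68, 6.25 and 8.91 FPKM under salt, against 33.4, 35.99 and 33.8 FPKM under control, with little spread inside either group (log2 difference -1.998 ± 0.17 (SE), adjusted p = 4.1e-07). AT4G19820, a chitinase relative, differed by -2.04, and AT1G13650, AT4G15990 and AT5G62280, without a described role, by -2.79, -2.64 and -2.04. The non-coding AT1G25098 (-2.89), AT5G07015 (-2.75) and AT4G09785 (-2.32) also entered the list. Each of these 3 overlaps another gene, and none was called lower in WT. The last was the plastid gene ATCG00270, which had 2.34, 3.16 and 3.53 FPKM under salt, against 10.4, 18.3 and 17.2 FPKM under control.

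**Figure D1:**
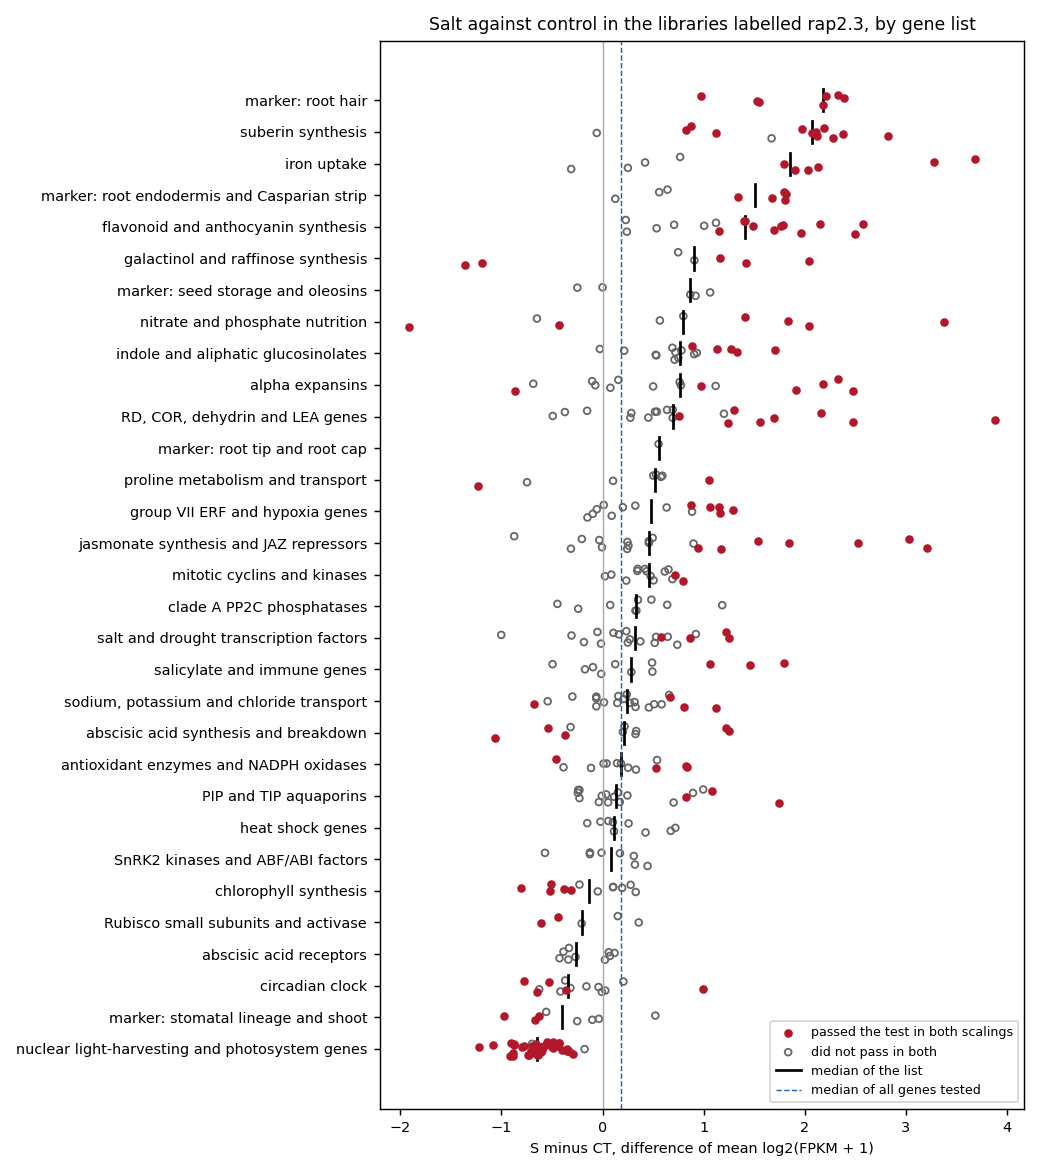
Difference of mean log2(FPKM + 1), S minus CT, for the tested members of 31 gene lists in the libraries labelled rap2.3, with 1 point per gene and a black bar at each list's median. Root hair, suberin and iron uptake lists stand at the top with medians of 2.18, 2.08 and 1.85, and the light-harvesting list stands at the bottom with -0.65, beside a median of 0.18 over all genes tested.

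Genes for transport of sodium, potassium and chloride rose or fell about as often as all genes did. Of 22 listed, 21 were tested, 3 rose and 1 fell, beside 12.3% and 5.24% of all genes, and 0 to 1 fell with a library left out, with a list median of 0.24 as deposited and 0.10 rescaled. HKT1, which unloads sodium from the xylem of the root, had 4.90, 4.11 and 4.47 FPKM in the S libraries, against 1.03, 1.0997 and 2.73 FPKM in the CT libraries (log2 difference 1.13 ± 0.24 (SE), adjusted p = 0.0016). Every S library lay above every CT library. AKT1, the inward potassium channel of root cells, had 21.7, 21.1 and 21.6 FPKM under salt, against 13.2, 8.51 and 14.6 FPKM under control (log2 difference 0.81). CLC-C, a tonoplast chloride transporter, had 22.2, 22.1 and 22.7 FPKM under salt, against 13.6, 13.1 and 14.5 FPKM under control (log2 difference 0.66). AKT1 and CLC-C overlap another annotated gene. SLAH1, a relative of the guard cell anion channel, fell at low level, at 0.282, 0.587 and 0.26 FPKM under salt, against 1.22, 1.11 and 1.25 FPKM under control.

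The plasma membrane sodium exporter SOS1 had 9.36, 10.3 and 10.7 FPKM in the S libraries, against 7.54, 6.84 and 6.91 FPKM in the CT libraries. Its log2 difference was 0.46 ± 0.13 (SE), adjusted p = 0.011 as deposited and 0.27 with adjusted p = 0.074 after rescaling, so its call rested on the scaling. The kinase gene SOS2 and the calcium sensor gene SOS3, which act on SOS1, differed by -0.06 (adjusted p = 0.83) and 0.01 (adjusted p = 0.97). The vacuolar exchanger NHX1, which stores sodium in the vacuole, had 45.6, 43.2 and 46.0 FPKM under salt, against 38.4, 38.7 and 44.8 FPKM under control, within which the groups overlapped (adjusted p = 0.31).

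Genes of abscisic acid synthesis and breakdown changed in both directions, while its receptor and signalling genes did not pass under both scalings. Among 14 genes of synthesis and breakdown, 10 were tested, 2 rose and 3 fell, beside 12.3% and 5.24% of all genes. Leaving a library out, 1 to 2 rose and 2 to 3 fell. BGLU18, which frees the hormone from its glucose ester, had 116, 203 and 60.4 FPKM in the S libraries, against 45.1, 40.6 and 56.5 FPKM in the CT libraries (log2 difference 1.25), with the third S library only just above the CT range. The hydroxylase genes that degrade the hormone went both ways: CYP707A1 had 5.49, 8.25 and 4.96 FPKM under salt, against 1.78, 1.84 and 2.57 FPKM under control, and CYP707A2 had 3.49, 3.16 and 4.37 FPKM under salt, against 7.12, 9.53 and 9.69 FPKM under control, with log2 differences of 1.22 and -1.06. ABA1, the zeaxanthin epoxidase, and AAO3, the aldehyde oxidase of the last step, fell by 0.54 and 0.37 on the log2 scale. NCED3, the cleavage enzyme of drought-induced synthesis, was at 2.95, 1.71 and 1.01 FPKM under salt, against 1.24, 1.86 and 1.22 FPKM under control, and did not pass the test (adjusted p = 0.74). None of the 9 receptors was called under both scalings, and 3 were called lower after rescaling alone, as were 2219 of 20547 genes. Among 9 clade A PP2C phosphatases, which hold the pathway off until the hormone binds its receptors, none passed under both scalings, and HAI1 alone was called as deposited (log2 difference 1.18, adjusted p = 0.038). Of 10 SnRK2 kinase and ABF or ABI factor genes, 8 were tested and none passed under both scalings. SNRK2.2 was called as deposited, at 68.8, 70.4 and 81.0 FPKM under salt, against 57.5, 55.2 and 62.8 FPKM under control. AAO3 overlaps another annotated gene.

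Genes of the RD, COR, dehydrin and LEA class rose in part. Many of them, though not all, encode small hydrophilic proteins that protect membranes and proteins in drying cells. All 20 were tested, 8 rose and none fell, beside 12.3% of all genes rising, and the list median was 0.70. With any one of the 6 libraries left out, 6 to 8 members rose. COR15A, a chloroplast protein of freezing tolerance, had 21.2, 19.4 and 6.11 FPKM in the S libraries, against 4.24, 0.678 and 1.09 FPKM in the CT libraries (log2 difference 2.48 ± 0.53 (SE), adjusted p = 0.0017). KIN1 had 29.99, 36.2 and 16.7 FPKM under salt, against 0.86, 0.288 and 1.64 FPKM under control (log2 difference 3.88 ± 0.34 (SE), adjusted p = 4.1e-07). In both genes the third S library was the lowest of its group and still above every CT library. KIN2 was at 216, 221 and 149 FPKM under salt, against 63.9, 81.7 and 51.4 FPKM under control, a difference of 1.56, and since KIN1 and KIN2 are close copies their reads may be split uncertainly. ERD10 had 77.7, 83.5 and 51.8 FPKM under salt, against 16.4, 12.4 and 15.97 FPKM under control (log2 difference 2.16), and its fellow dehydrin COR47 had 199, 206 and 183 FPKM under salt, against 83.2, 72.1 and 91.8 FPKM under control (log2 difference 1.25). RD29A had 34.6, 32.7 and 24.7 FPKM under salt, against 8.14, 7.94 and 10.1 FPKM under control (log2 difference 1.70 ± 0.40 (SE), adjusted p = 0.0038), ERD7 differed by 0.75, and RD20, a lipid droplet caleosin, was the other member that rose.

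RD29B and RAB18 were among the members that did not pass. RD29B had 18.8, 27.9 and 14.4 FPKM in the S libraries, against 20.7, 14.3 and 13.96 FPKM in the CT libraries, and RAB18 had 36.5, 51.4 and 27.2 FPKM under salt, against 63.3, 56.3 and 40.8 FPKM under control. In both the groups overlapped, with log2 differences of 0.28 (adjusted p = 0.57) and -0.49 (adjusted p = 0.27). LTI30, LEA14 and COR413-PM1 were called as deposited, with log2 differences of 1.201, 0.70 and 0.52, and not after rescaling. RAB18 overlaps another annotated gene.

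The 250 bases before the annotated start are shown for RD29A, COR15A and ERD7, which were chosen among the genes that rose because they hold the dehydration-responsive element there, and for RD29B, the neighbour of RD29A, which did not pass the test. The sequences are from RefSeq assembly TAIR10.1, read 5′ to 3′ on the gene's strand and ending at the base before the start. Capitals mark the element ACCGAC or GCCGAC and the abscisic acid-responsive element ACGTGGC or ACGTGTC, on either strand.
RD29A: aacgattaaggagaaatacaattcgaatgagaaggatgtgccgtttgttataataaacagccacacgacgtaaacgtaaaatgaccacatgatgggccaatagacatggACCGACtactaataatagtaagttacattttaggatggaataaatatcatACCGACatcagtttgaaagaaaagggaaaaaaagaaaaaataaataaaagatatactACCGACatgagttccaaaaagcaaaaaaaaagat
COR15A: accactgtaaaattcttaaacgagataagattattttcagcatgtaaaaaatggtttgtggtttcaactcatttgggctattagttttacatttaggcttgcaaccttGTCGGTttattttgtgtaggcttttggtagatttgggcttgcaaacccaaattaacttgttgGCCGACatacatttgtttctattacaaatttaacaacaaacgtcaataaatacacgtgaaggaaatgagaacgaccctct
ERD7: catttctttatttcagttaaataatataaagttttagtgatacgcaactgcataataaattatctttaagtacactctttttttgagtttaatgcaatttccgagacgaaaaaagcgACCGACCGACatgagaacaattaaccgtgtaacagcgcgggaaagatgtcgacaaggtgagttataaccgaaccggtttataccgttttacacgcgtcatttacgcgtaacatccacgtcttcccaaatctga
RD29B: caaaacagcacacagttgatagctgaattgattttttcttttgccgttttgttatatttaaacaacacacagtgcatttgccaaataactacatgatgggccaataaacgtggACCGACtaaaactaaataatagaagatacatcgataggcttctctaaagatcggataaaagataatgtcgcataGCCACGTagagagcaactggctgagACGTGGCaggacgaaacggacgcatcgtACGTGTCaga
The windows lie at chr5:21240467-21240716 (plus strand), chr2:17712331-17712580 (minus strand), chr2:7757930-7758179 (minus strand) and chr5:21236771-21237020 (plus strand). RD29A holds 3 dehydration-responsive elements in capitals, COR15A and ERD7 hold 2 each, those of ERD7 overlapping, and RD29B holds 1 together with 3 abscisic acid-responsive elements. Over the 20 promoters of the class, 7 hold each element. The dehydration-responsive element is in 3 of the 8 members that rose, those shown, and in 4 of the 12 others. The abscisic acid-responsive element is in 0 of the 8 that rose and in 7 of the 12 others. Its shorter core ACGTG is in 14 of the 20 promoters (70.0%), among them that of KIN1, which rose. Elements outside these 250 bases were not counted, so a promoter without a match here may hold one elsewhere. Among all 20436 promoters of tested genes the abscisic acid-responsive element was in 7.39% and the dehydration-responsive element in 7.82%. In promoters of genes that rose the shares were 6.44% and 7.59%, and in those of genes that fell 10.5% and 6.00%. The shorter core ACGTG was in 27.8% of promoters of genes that rose, 26.7% of those that fell and 23.9% of all. The W box TTGACC or TTGACT, the target of WRKY factors, was in 31.6%, 25.1% and 28.1%, and the GCC box GCCGCC, the target of ethylene response factors, in 1.19%, 0.84% and 1.98%. A match of letters is no evidence of binding.

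A gene of proline synthesis rose and a gene of its breakdown fell. P5CS1, the rate-limiting enzyme of proline synthesis, had 80.4, 81.5 and 71.9 FPKM in the S libraries, against 37.3, 41.2 and 32.8 FPKM in the CT libraries (log2 difference 1.05 ± 0.28 (SE), adjusted p = 0.0088). PRODH1, the mitochondrial enzyme that starts proline breakdown, had 75.2, 74.0 and 166 FPKM under salt, against 253, 228 and 212 FPKM under control (log2 difference -1.23 ± 0.24 (SE), adjusted p = 9.4e-04). No libraries overlapped between groups in either gene, and the third S library was the nearest to control for PRODH1. These were the 2 of 8 proline genes called under both scalings, and 1 of 8 rising is near the 12.3% of all genes. P5CS1 kept its call under both scalings without the second CT library, and with any other library left out no proline gene rose, while 1 fell in each case. The genes P5CR, P5CDH and PROT1 were called higher as deposited alone, with log2 differences of 0.53, 0.58 and 0.59.

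Of 8 genes of galactinol and raffinose metabolism, 7 were tested, 3 rose and 2 fell, beside 12.3% and 5.24% of all genes. GOLS2, a galactinol synthase, had 5.51, 11.001 and 3.76 FPKM in the S libraries, against 0.698, 1.04 and 0.526 FPKM in the CT libraries (log2 difference 2.05), and GOLS4 was listed at 0 in all CT libraries and had 1.28, 5.75 and 0.254 FPKM in S libraries. RS5, the raffinose synthase, had 32.3, 38.4 and 26.9 FPKM under salt, against 12.3, 11.95 and 17.8 FPKM under control (log2 difference 1.16). SIP2, a hydrolase of raffinose, had 66.6, 75.5 and 137 FPKM under salt, against 214, 210.3 and 185 FPKM under control (log2 difference -1.19). DIN10, a dark-induced relative of raffinose synthase, had 180.5, 158 and 351 FPKM under salt, against 600.2, 589.7 and 489 FPKM under control (log2 difference -1.36). Both fell and are the most abundant of the list, whose sum was 319, 337 and 555 FPKM in the S libraries, against 848, 830.0 and 714 FPKM in the CT libraries. P5CS1, P5CDH, GOLS4 and DIN10 overlap another annotated gene.

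Of 18 PIP and TIP aquaporins, 3 rose and none fell, near the 12.3% of all genes that rose. TIP1;1, a vacuolar channel, had 717, 718 and 743 FPKM in the S libraries, against 319.6, 298 and 424 FPKM in the CT libraries (log2 difference 1.08 ± 0.15 (SE), adjusted p = 4.7e-05). TIP2;2 and PIP2;4, both known from roots, differed by 0.82 and 1.74. The most abundant, TIP1;2, had 1723, 1689 and 2033 FPKM under salt, against 1623, 1551 and 1646 FPKM under control and did not pass (adjusted p = 0.37). Of 21 salt and drought transcription factors, 20 were tested and 4 rose: HB7 (1.25), MYB41 (1.22), MYB102 (0.87) and MYB44 (0.58), and 2 to 3 did so with a library left out. MYB41, a known activator of suberin synthesis, had 3.47, 3.31 and 4.27 FPKM under salt, against 1.05, 0.247 and 2.13 FPKM under control. DREB2A, the drought and heat factor that binds the dehydration-responsive element, had 7.94, 9.96 and 11.9 FPKM under salt, against 11.3, 9.02 and 10.4 FPKM under control. RD26, a NAC factor of abscisic acid signalling, had 15.1, 17.8 and 18.1 FPKM under salt, against 16.7, 11.7 and 14.4 FPKM under control. Groups overlapped in both. DREB2A and MYB44 overlap another annotated gene.

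**Figure D2:**
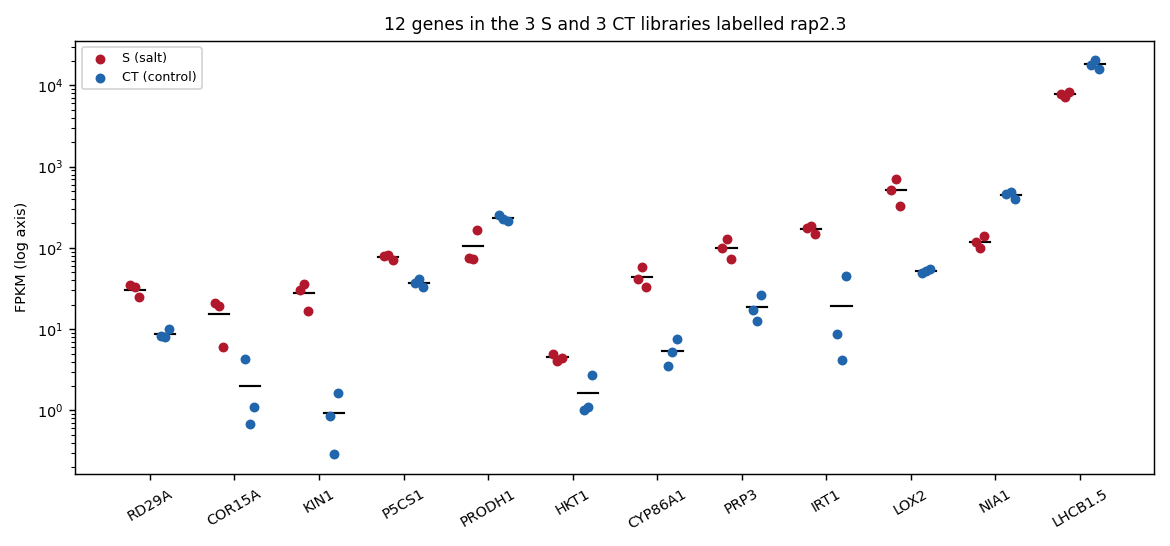
FPKM of 12 genes in the 3 S libraries (red) and the 3 CT libraries (blue) labelled rap2.3, on a log axis, with black bars at group means. PRODH1, NIA1 and LHCB1.5 lie lower under salt and the other 9 genes lie higher, with no overlap between groups in any of the 12.

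Root hair markers had the highest median of the lists. All 7 root hair markers were tested and rose, beside 12.3% of all genes, with a median of 2.18 as deposited and 1.98 rescaled. PRP3, a proline-rich wall protein of root hairs, had 98.9, 131 and 72.3 FPKM in the S libraries, against 17.2, 12.6 and 26.1 FPKM in the CT libraries (log2 difference 2.39 ± 0.40 (SE), adjusted p = 2.1e-04). LRX1, a leucine-rich extensin of the hair wall, had 18.4, 21.3 and 10.8 FPKM under salt, against 1.79, 2.06 and 5.05 FPKM under control (log2 difference 2.21). The transcription factor RSL4, which sets hair length, had 5.15, 7.49 and 3.35 FPKM under salt, against 0.964, 0.837 and 1.52 FPKM under control (log2 difference 1.55). The expansins EXPA7 and EXPA18, COBL9 and RHD6 rose by 2.18, 2.33, 1.53 and 0.98 on the log2 scale. Summed over the list, the level was 166, 218 and 124 FPKM in the S libraries, against 25.9, 22.5 and 45.7 FPKM in the CT libraries. In this sum the third CT library was the highest of its group and the third S library the lowest, and they did not overlap. EXPA7 and EXPA18 overlap another annotated gene.

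Suberin genes rose nearly throughout. Of 13, all were tested, 11 rose and none fell, beside 12.3% of all genes rising, with a median of 2.08 and 1.90 after rescaling. CYP86A1, the fatty acid hydroxylase of root suberin, had 41.1, 58.3 and 33.0 FPKM in the S libraries, against 3.55, 5.17 and 7.52 FPKM in the CT libraries (log2 difference 2.82 ± 0.31 (SE), adjusted p = 4.8e-06). ASFT, which joins ferulate to the suberin aliphatics, had 56.9, 70.4 and 47.0 FPKM under salt, against 8.78, 7.20 and 16.5 FPKM under control (log2 difference 2.38 ± 0.22 (SE), adjusted p = 9.0e-07). GPAT5, the acyltransferase of the monomers, had 10.9, 11.7 and 6.49 FPKM under salt, against 1.70, 0.693 and 2.296 FPKM under control. The exporters ABCG6 and ABCG20 differed by 2.122 and 0.88, and the fatty acyl reductases FAR5, FAR4 and FAR1 by 2.28, 1.97 and 0.83. The exporter ABCG2 had 5.46, 4.99 and 5.32 FPKM under salt, against 0.472, 0.448 and 2.54 FPKM under control, without overlap, but did not pass (adjusted p = 0.12), nor did KCS20. With a library left out, 9 to 11 suberin genes and 6 to 7 root hair markers rose.

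Casparian strip genes of the root endodermis went the same way in 5 of 8 cases, beside 12.3% of all genes rising, and none fell. CASP1, a scaffold protein of the strip, had 69.7, 87.2 and 49.1 FPKM in the S libraries, against 16.1, 15.9 and 24.04 FPKM in the CT libraries (log2 difference 1.81 ± 0.26 (SE), adjusted p = 6.2e-05). MYB36, the transcription factor that turns the strip on, had 4.58, 7.48 and 6.24 FPKM under salt, against 2.04, 0.802 and 2.84 FPKM under control (log2 difference 1.34). CASP2 and CASP4 differed by 1.79 and 1.68, whereas SCR, which specifies the layer, was at 23.4, 19.2 and 22.7 FPKM under salt, against 17.9, 19.8 and 21.9 FPKM under control. Of 16 alpha expansins, 15 were tested, 5 rose and EXPA8 fell (-0.87). EXPA10 was the most abundant that rose, at 146, 141 and 148 FPKM under salt, against 21.2, 25.1 and 30.1 FPKM under control, and EXPA17 and EXPA14 differed by 1.92 and 0.97, beside the root hair pair. Of 6 root tip and root cap genes a single one, WOX5, was tested, and it did not pass. Of 8 stomatal lineage and shoot genes, none rose and 3 fell, beside 5.24% of all genes falling: FAMA (-0.97), TMM (-0.67) and SPCH (-0.63). These markers of root and shoot cells moved with the gene groups of suberin, iron uptake and photosynthesis, and their part in those results was not tested. CASP1, ASFT, ABCG2, FAR1 and FAR4 overlap another annotated gene.

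Photosynthesis genes encoded in the nucleus fell almost as a block while these root genes rose. All 40 genes of the light-harvesting complexes and photosystems were tested, 37 fell and none rose, beside 5.24% of all genes falling, and in the rescaled values all 40 were called lower. In all 40 every S library lay below every CT library, beside 11.3% of all genes tested. With a library left out 34 to 38 fell. The changes were moderate, with a median of -0.65 as deposited and -0.86 rescaled. LHCB1.5 (AT2G34420), a chlorophyll-binding protein of photosystem II, had the largest difference in FPKM of any gene, at 7854, 7166 and 8197 FPKM in the S libraries, against 18012, 20311 and 16048 FPKM in the CT libraries (log2 difference -1.22 ± 0.15 (SE), adjusted p = 9.8e-06). LHCA1 and LHCA4, antenna proteins of photosystem I, were similarly lower. LHCA1 had 2365, 2233 and 2222 FPKM under salt, against 4939, 5479 and 4161 FPKM under control (log2 difference -1.09). LHCA4 had 3132, 2812 and 3106 FPKM under salt, against 5577, 6221 and 5314 FPKM under control (log2 difference -0.92). PSBR had 5565, 4923 and 5762 FPKM under salt, against 8381, 9647 and 7348 FPKM under control, and LHCB1.4 and LHCA3 differed by -0.91 and -0.80. PSBS, the sensor of excess light energy, had 1460.3, 1357 and 1405 FPKM under salt, against 1499, 1693 and 1588 FPKM under control (adjusted p = 0.17 as deposited and 0.021 rescaled). The LHCB1 copies are nearly identical, so their reads may be split uncertainly, and LHCB1.3 did not pass as deposited (log2 difference -0.32, adjusted p = 0.06).

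The list took a sizeable part of all FPKM. Its summed share was 11.6% ± 0.64 in the S libraries and 17.603% ± 1.3 in the CT libraries (SD, n = 3 each), and the ranges did not overlap. An exact two-sided permutation test of 3 against 3 gave p = 0.1, the smallest it can give. The sum was 93225, 85322 and 92549.8 FPKM in the S libraries, against 141458, 156348 and 131000.0 FPKM in the CT libraries. Because FPKM is relative, the fall of such abundant genes and the positive median over all genes moved together, and their parts were not tested. Of 5 Rubisco small subunit and activase genes, RCA and RBCS2B fell (-0.44 and -0.60), while RBCS1A, the most abundant, had 12039, 11738 and 12312 FPKM under salt, against 10317, 10947 and 11258 FPKM under control (adjusted p = 0.38). Of 13 chlorophyll synthesis genes, 12 were tested and 5 fell, beside 5.24% of all genes: CAO (-0.81), CHLM (-0.52), GUN4 (-0.51), HEMA1 (-0.38) and CRD1 (-0.31). With a library left out, 1 to 2 of the Rubisco list and 3 to 5 of the chlorophyll list fell. CAO, which makes chlorophyll b, had 84.0, 76.9 and 89.4 FPKM under salt, against 137, 149.5 and 154 FPKM under control. In the nuclear photosynthesis genes named, LHCB1.3, LHCB1.5, LHCA4, PSBR, RCA, CAO, CHLM, GUN4 and CRD1 overlap another annotated gene.

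**Figure D3:**
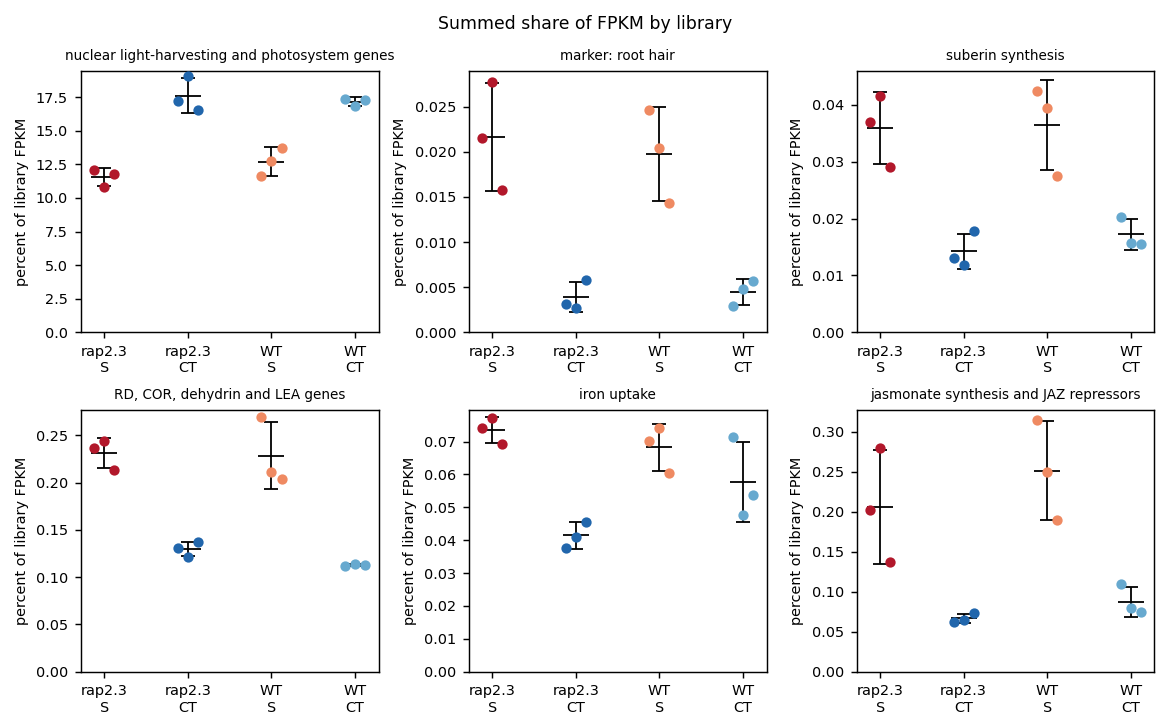
Summed FPKM of 6 gene lists as a percent of each library's total, with 3 points per group, group means and error bars of 1 SD, for S and CT libraries labelled rap2.3 and of WT. The light-harvesting share is lower and the other 5 shares are higher in the S libraries labelled rap2.3 than in their CT libraries, with no overlap.

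Genes of pigment and defence metabolism rose in part. Of 17 flavonoid and anthocyanin genes, all were tested, 11 rose and none fell (median 1.41), beside 12.3% of all genes rising. CHS, chalcone synthase at the entry of the pathway, had 322, 443 and 232 FPKM in the S libraries, against 108, 81.6 and 197 FPKM in the CT libraries (log2 difference 1.41 ± 0.30 (SE), adjusted p = 0.0018). DFR, the first enzyme of the anthocyanin branch, had 20.5, 44.6 and 5.64 FPKM under salt, against 2.33, 1.93 and 2.72 FPKM under control (log2 difference 2.50 ± 0.57 (SE), adjusted p = 0.0028), and LDOX, which follows it, 19.7, 40.8 and 7.81 FPKM under salt, against 2.99, 1.01 and 3.47 FPKM under control. The regulator PAP1 had 4.41, 9.49 and 1.38 FPKM under salt, against 0.206, 0.315 and 1.51 FPKM under control (log2 difference 1.70), with the third S library below the third CT library. Values within the S group spread widely for this list, replicate 2 always being the highest of the genes named here and replicate 3 the lowest. With any 1 library left out, 7 to 13 members rose. CHS overlaps another annotated gene.

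Of 20 genes of jasmonate synthesis and response, 19 were tested, 7 rose and none fell, beside 12.3% of all genes rising. Leaving a library out, 5 to 7 rose. LOX2, the chloroplast lipoxygenase that starts jasmonate synthesis, had 509, 709 and 328 FPKM in the S libraries, against 48.9, 52.4 and 55.1 FPKM in the CT libraries (log2 difference 3.21 ± 0.29 (SE), adjusted p = 5.4e-07). AOC2, an allene oxide cyclase of the same path, had 485, 693 and 348 FPKM under salt, against 125, 133 and 151 FPKM under control (log2 difference 1.84), and OPR3 differed by 0.95. The storage proteins VSP1 and VSP2, are classic jasmonate outputs. VSP1 had 44.0, 101 and 26.03 FPKM under salt, against 6.92, 2.21 and 7.94 FPKM under control. VSP2 had 87.6, 203 and 30.8 FPKM under salt, against 13.3, 11.8 and 15.4 FPKM under control, and both rose with no overlap. JAZ1 was the only JAZ repressor of the list that rose, with a difference of 1.53, and LOX4 differed by 1.18. PDF1.2, an output of the ethylene branch, was listed at 0 in all S libraries and at 1.02, 1.62 and 0.16 FPKM in CT libraries (adjusted p = 0.41).

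Glucosinolates are the sulfur-rich defence compounds of the cabbage family. Of 16 genes listed 5 rose, or 2 to 7 with a library left out, beside 12.3% of all genes. MYB34, a regulator of the indole branch, had 46.8, 54.2 and 34.2 FPKM in the S libraries, against 17.5, 15.4 and 20.6 FPKM in the CT libraries (log2 difference 1.28 ± 0.23 (SE), adjusted p = 4.5e-04). CYP79B2, which makes indole-3-acetaldoxime from tryptophan, had 58.3, 69.6 and 45.7 FPKM under salt, against 23.7, 16.8 and 26.8 FPKM under control (log2 difference 1.33). SOT16, MYB29 and CYP79F2 differed by 1.13, 0.89 and 1.71. MYB51, named in the title of the series, had 5.41, 5.08 and 5.18 FPKM under salt, against 5.09, 3.38 and 4.78 FPKM under control, and did not pass (log2 difference 0.21 ± 0.23 (SE), adjusted p = 0.53). SIG3, a plastid sigma factor also named there, had 28.1, 25.4 and 31.3 FPKM under salt, against 33.97, 33.8 and 31.8 FPKM under control. It was not called as deposited (-0.23, adjusted p = 0.15) and was called lower after rescaling (-0.44, adjusted p = 0.021). PYK10, the beta-glucosidase of root endoplasmic reticulum bodies, was the one gene higher under salt among the 10 largest differences in FPKM, at 3274, 3819.7 and 3143 FPKM under salt, against 1596, 1281 and 2034 FPKM under control (log2 difference 1.08). SIG3 and PYK10 overlap another annotated gene. Of 13 salicylate and immune genes, 11 were tested and 3 rose, beside 12.3% of all genes: NHL10 (1.80), PAD3 (1.45) and PR2 (1.06), the last at most 1.29 FPKM.

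Mineral nutrition genes of the root showed sharp steps. Of 10 iron uptake genes, all were tested, 6 rose and none fell, beside 12.3% of all genes rising. The same count of 6 was found with each library left out in turn. IRT1, the root plasma membrane iron transporter, had 178, 184 and 147 FPKM in the S libraries, against 8.80, 4.12 and 44.5 FPKM in the CT libraries (log2 difference 3.69 ± 0.53 (SE), adjusted p = 5.6e-05). FRO2, the ferric chelate reductase that acts ahead of it, had 44.6, 52.1 and 40.4 FPKM under salt, against 2.31, 1.62 and 11.7 FPKM under control (log2 difference 3.28 ± 0.41 (SE), adjusted p = 1.7e-05). Their CT levels were highest in the third library and stayed below all S libraries. FIT, the transcription factor over both, differed by 1.79, and its partners BHLH38, BHLH39 and BHLH100 by 2.13, 2.03 and 1.91. FER1, an iron storage ferritin that falls when iron is short, had 148, 191 and 184 FPKM under salt, against 201, 256 and 193 FPKM under control, and did not pass (adjusted p = 0.33). BHLH38 and FER1 overlap another annotated gene.

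Of 11 nitrate and phosphate genes, 9 were tested, 4 rose and 2 fell, beside 12.3% and 5.24% of all genes. All 4 that rose belong to phosphate: the transporters PHT1;1 and PHT1;4, the sensor SPX1 and the phosphatase PS2. PHT1;1 had 84.0, 92.0 and 73.5 FPKM in the S libraries, against 18.7, 11.01 and 34.8 FPKM in the CT libraries (log2 difference 2.04 ± 0.33 (SE), adjusted p = 1.5e-04), and PS2 had 13.3, 17.5 and 9.68 FPKM under salt, against 0.703, 0.101 and 0.339 FPKM under control (log2 difference 3.38 ± 0.50 (SE), adjusted p = 8.1e-05). SPX1 and PHT1;4 differed by 1.83 and 1.41. The 2 that fell belong to nitrate assimilation, and 1 to 2 fell with a library left out. NIA1, nitrate reductase, had 119, 98.7 and 141 FPKM under salt, against 461, 490.2 and 396 FPKM under control (log2 difference -1.91 ± 0.31 (SE), adjusted p = 1.5e-04), and NIR1, nitrite reductase, fell by 0.43. NIA2, the more abundant nitrate reductase, had 645, 592 and 822 FPKM under salt, against 1069.8, 1147 and 987 FPKM under control (adjusted p = 0.084 as deposited and 0.045 rescaled).

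Low-oxygen genes rose in part, and heat shock genes did not pass. Of 14 group VII ethylene response factor and hypoxia genes, 5 rose and none fell, beside 12.3% of all genes rising, and 2 to 5 rose with a library left out. PDC1, pyruvate decarboxylase of ethanol fermentation, had 3.32, 1.75 and 2.26 FPKM in the S libraries, against 0.503, 0.134 and 0.554 FPKM in the CT libraries (log2 difference 1.29 ± 0.25 (SE), adjusted p = 7.7e-04). ADH1, the dehydrogenase that follows it, had 5.65, 7.13 and 5.61 FPKM under salt, against 1.999, 2.96 and 1.74 FPKM under control (log2 difference 1.15). SUS4, SUS1 and HB1 differed by 1.16, 1.06 and 0.88. RAP2.2 and RAP2.12, the close relatives of RAP2.3, had overlapping groups. RAP2.2 had 71.6, 75.0 and 90.3 FPKM under salt, against 77.7, 72.3 and 71.2 FPKM under control. RAP2.12 had 67.3, 77.4 and 80.8 FPKM under salt, against 70.8, 74.3 and 77.9 FPKM under control. Of 13 antioxidant genes, 3 rose and 1 fell, beside 12.3% and 5.24% of all genes, so the fall was near that share. The NADPH oxidases RBOHD and RBOHF and the catalase CAT3 rose (0.84, 0.83 and 0.53), and CAT2, the leaf peroxisomal catalase, fell (-0.46). With a library left out, 0 to 3 members of this list rose and 0 to 1 fell. None of the 9 heat shock genes was called.

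Among 14 clock genes, ELF4 rose and LHY, PRR7, RVE8 and ZTL fell, beside 12.3% and 5.24% of all genes. Leaving a library out, 1 to 4 fell. ELF4, an evening gene, had 131, 149 and 129.6 FPKM in the S libraries, against 70.9, 64.1 and 68.4 FPKM in the CT libraries (log2 difference 1.00 ± 0.17 (SE), adjusted p = 2.8e-04). LHY, a morning gene, had 44.7, 36.7 and 43.3 FPKM under salt, against 70.6, 65.1 and 80.4 FPKM under control (log2 difference -0.78). Among 14 mitotic genes CYCB2;2 (0.79) and CDKB2;2 (0.71) rose, near the 12.3% of all genes, and 0 to 1 did so with a library left out. Of 10 seed storage and oleosin genes, 5 were tested and none was called, with a median difference of 0.87 as deposited and 0.77 rescaled. ADH1, CAT2 and CDKB2;2 overlap another annotated gene.

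Many of the same genes were called under salt in WT, which was measured in separate libraries. In WT 2817 of 20744 genes tested were higher (13.6%) and 1072 lower (5.17%) under salt, or 2035 higher and 1716 lower after rescaling. Without the first WT S library 2333 genes were called and without the second 2411, in place of 3889. Of the genes called in the libraries labelled rap2.3 as deposited, 3088 were called in the same direction in WT, which is 57.3% of the 5386 calls tested in both and 80.1% of the 3855 WT calls, and 0 were called in opposite directions. The test of the difference between the 2 responses called 0 of 21322 genes (limma, smallest adjusted p = 0.80), with 705 (3.31%) at an unadjusted p under 0.05. No gene can therefore be called particular to the line labelled rap2.3, and a call in one genotype alone is no such evidence. Without the second WT CT library 21 genes were called in this test.

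Iron uptake genes differed more under salt in the libraries labelled rap2.3 than in WT by their values, without passing the test. Their median salt difference was 1.85 for the line labelled rap2.3 and 0.51 for WT. BHLH100 had 20.1, 15.8 and 14.2 FPKM in the WT S libraries, against 38.04, 6.09 and 9.88 FPKM in the WT CT libraries, so that the first WT CT library lay above all WT S libraries. The difference of the 2 salt responses was 1.63 ± 0.61 (SE), unadjusted p = 0.011, with an adjusted p of 1. IRT1 had 186, 207 and 126 FPKM in the WT S libraries, against 17.2, 53.7 and 25.6 FPKM in the WT CT libraries, and rose in both genotypes. MYB51 had 4.78, 5.13 and 4.88 FPKM in the WT S libraries, against 17.35, 4.91 and 11.2 FPKM in the WT CT libraries, where the second CT library lay inside the salt range and the others above it. It was called lower under salt in WT (log2 difference -0.89, adjusted p = 0.034) and the difference of responses was 1.11 ± 0.38 (SE), unadjusted p = 0.0058, again with an adjusted p of 1. CYP81F2, an indole glucosinolate hydroxylase, had 4.02, 4.64 and 4.15 FPKM in the WT S libraries, against 55.9, 3.59 and 20.3 FPKM in the WT CT libraries. In the libraries labelled rap2.3 it had 7.01, 4.09 and 6.09 FPKM under salt, against 2.73, 2.58 and 2.11 FPKM under control and did not pass (adjusted p = 0.092). Its difference of responses was 2.68 ± 0.75 (SE), unadjusted p = 0.0011, adjusted p of 1.

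**Figure D4:**
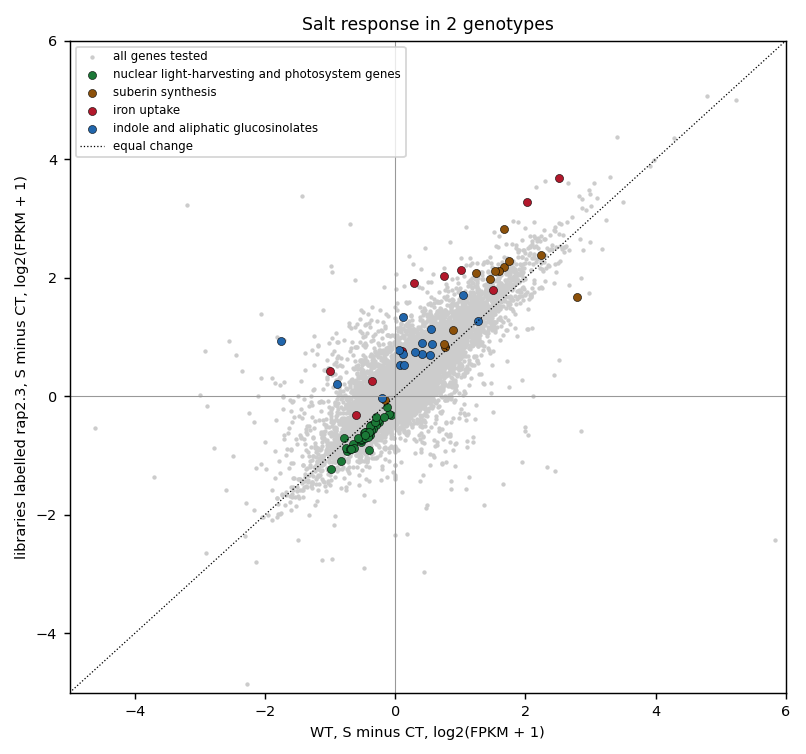
Salt difference (S minus CT, mean log2(FPKM + 1)) of each gene in the libraries labelled rap2.3 against that in WT, with 4 lists in colour and a dotted line at equal change. Light-harvesting genes lie at lower left and suberin genes at upper right, and iron uptake genes have medians of 1.85 for the line labelled rap2.3 and 0.51 for WT.

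The salt response was also read in 18 other libraries labelled rap2.3, as the mean of S+EL over EL, S+HS over HS and S+EL+HS over EL+HS. None of these libraries entered S against CT, although all shared the estimate of spread. Here 7159 genes were higher (34.8%) and 2261 lower (11%) with salt, or 4228 higher and 4448 lower after rescaling. Of the 5404 genes called between S and CT, 4610 (85.3%) were called in the same direction, 48.9% of the 9420 calls over the treatments, and 9 in the opposite one. Root hair markers were called higher in 7 of 7, suberin genes in 11 of 13, iron uptake genes in 6 of 10, and light-harvesting genes lower in 39 of 40.

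Medians of abscisic acid outputs varied between these backgrounds, and no member passed the test of the gap to S against CT. The PP2C phosphatases were called higher in 7 of 9 as deposited and 6 of 9 rescaled, beside 34.8% of all genes as deposited, with a median of 1.07 in place of 0.34 between S and CT. RD, COR, dehydrin and LEA genes were called higher in 16 of 20 as deposited and 14 of 20 rescaled, with a median of 1.07. That median was 1.36 over EL and 0.89 over HS but 0.50 over EL+HS, below the 0.70 between S and CT. RD29B differed by 1.33 in place of 0.28. NCED3 differed by 1.61 in place of 0.20. The mean over 3 backgrounds has a smaller error than a single difference, and counts of calls follow it. The test of S minus CT less the mean salt difference on the other backgrounds called 2 genes in all, with 1661 at an unadjusted p under 0.05, and no member of these lists was among the 2. That p-values missed the threshold does not show equal responses.

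**Figure D5:**
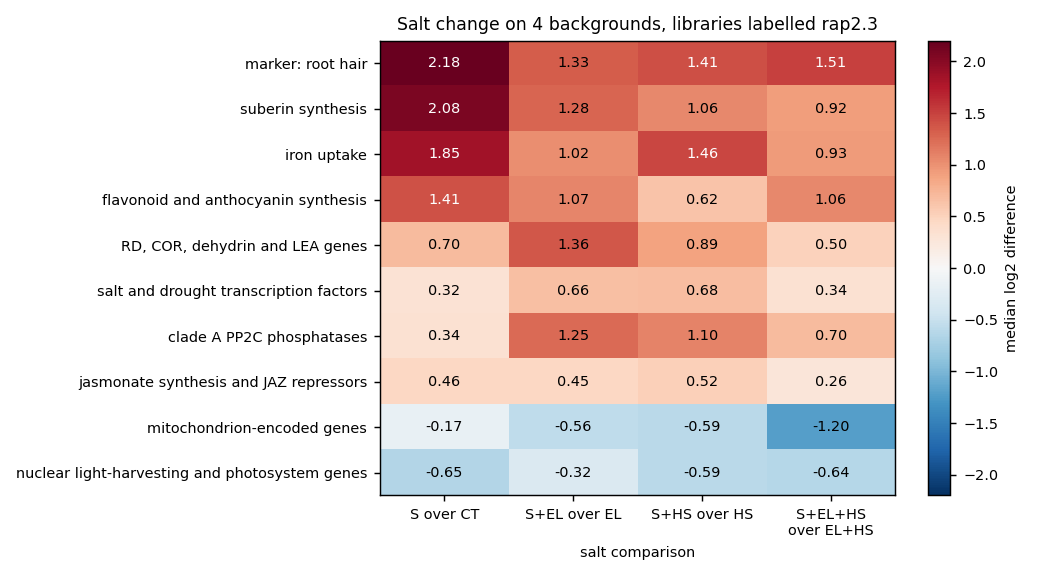
Median salt difference (log2) of 10 gene lists in the libraries labelled rap2.3 on 4 backgrounds, from salt-free control (CT) to excess light (EL), heat (HS) and both. Root hair, suberin, iron uptake and flavonoid lists are positive and the light-harvesting list is negative in every column, and the PP2C list runs from 0.34 over CT to 1.25 over EL.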

How the data were processed

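RNA was measured by sequencing whole seedlings in 48 libraries of 16 groups, each with 3 libraries that the labels call biological repeats. The deposited values are FPKM, made by the authors with HISAT2, Cufflinks and build TAIR10, per the submitters' processing notes. Versions, strand and read counts are not given in the sources used here, so depth and counting error are unknown and no count test was run. FPKM is relative to each library's total, so abundant genes move the values of all others.

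From these values limma 3.58.1 in R 4.3.3 was fitted to log2(FPKM + 1) with 1 mean per group and a trended prior, over 24 libraries per genotype or all 48. Genes needed 1 FPKM in 3 libraries of the fit. Benjamini-Hochberg adjustment covered all genes tested, at 0.05. Fold changes on this scale understate the changes of low genes. The fits were repeated on values divided by size factors, the median of ratios over 19289 genes above 0 in all 48 libraries. The script was tested on made-up values with known changes.

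Genes named are the 12 largest increases and 12 largest decreases (called under both scalings, at least 5 FPKM in the higher group, no overlap of groups). Also named are the 10 largest differences in FPKM, members of 31 lists, and RAP2.3, MYB51 and SIG3. Of 421 list members written, 416 were kept. PRODH2, HSP17.6C, UGT75C1, IMA1 and IMA2 had values but were left out, because RefSeq did not pair their symbols with the loci written. Lists and members were chosen with earlier results of these data known. Gene symbols, overlaps and sequences are from RefSeq TAIR10.1, and figures were drawn with matplotlib 3.10.9. Alternatives were another pseudocount, no filter, rescaling, a replicate block, the 6 libraries alone, and each library left out.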

Additional observations from a re-analysis of the deposited data

Results flagged for a closer look

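PAP17 (AT3G17790), a purple acid phosphatase gene known from phosphate shortage, and AT3G22620, annotated as a lipid-transfer relative, were the 2 genes whose salt difference under control passed a test against the mean salt difference over EL, HS and EL+HS in the libraries labelled rap2.3. PAP17 had 44.0, 40.2 and 44.3 FPKM under salt, against 7.63, 9.57 and 11.4 FPKM under control, a log2 difference of 2.07, while the mean over the other backgrounds was 0.61. Its gap between them was 1.46 ± 0.23 (SE; limma, adjusted p = 0.034). It stood at 81.4, 68.3 and 62.5 FPKM in S+EL libraries, against 97.7, 57.2 and 45.9 FPKM in EL libraries, and these groups overlapped. In S+HS libraries it had 43.9, 47.8 and 50.1 FPKM, against 16.6, 21.9 and 20.2 FPKM in HS libraries. In S+EL+HS libraries it had 67.8, 67.2 and 70.2 FPKM, against 43.3, 46.7 and 60.7 FPKM in EL+HS libraries. Neither of these pairs of groups overlapped.

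AT3G22620 had 154, 185 and 154 FPKM under salt, against 22.01, 22.8 and 40.8 FPKM under control, a log2 difference of 2.54, and 1.07 over the other backgrounds, a gap of 1.47 ± 0.23 (SE, adjusted p = 0.034). Both genes overlap another annotated gene. Limma called no gene in this test with the replicate number as a block, and between 0 and 43 were called with a library left out.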

How the results depend on the processing

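Between S and CT in the libraries labelled rap2.3, 5404 genes were called, with 5099 at a pseudocount of 0.1, 5457 without the filter on low values, 4750 after rescaling and 6456 from the 6 libraries compared alone. Leaving out 1 library gave 3310 to 5118, and rescaling together with a left-out library, chosen after seeing the data, 2787 to 4560. In WT 3889 genes were called, and 2333 to 3738 with a library left out. The test between genotypes gave 0, and 0 to 21 with a library left out. The test against the other backgrounds gave 2, with 6 without the filter, 3 after rescaling, 0 with the replicate block and 0 to 43 with a library left out. Replicate numbers did not pair the libraries (correlations of -0.04, -0.08 and -0.12 between same-numbered S and CT deviations), and the block gave 5160 calls. Of 174 genes named, 149 were called as deposited, 115 of them kept their call under every single planned change, and 32 lost it with a library left out (AT5G07015, AT4G09785, RCA, SLAH1, AAO3, BGLU18, HAI1, SNRK2.2, LTI30, LEA14, COR413-PM1, RD20, P5CDH, PROT1, GOLS4, CAT2, HB1, EXPA14, CYCB2;2, CDKB2;2, GUN4, CRD1, PAP1, SOT16, MYB29, NIR1, LOX4, OPR3, RVE8, PRR7, ZTL and SPCH). Rescaled with a library left out, 41 of the 149 lost their call in at least 1 case. Directions reversed for genes that had not passed. After rescaling these were SOS3 (-0.16), NHX1 (-0.062), TIP1;2 (-0.043), RAP2.2 (-0.12), RAP2.12 (-0.20), RBCS1A (-0.063) and SCR (-0.077). With a library left out, over deposited and rescaled values, the ranges were MYB51 (-0.079 to 0.31), SOS2 (-0.39 to 0.013), SOS3 (-0.26 to 0.20), NHX1 (-0.099 to 0.22), NCED3 (-0.18 to 0.43), RD29B (-0.15 to 0.49), TIP1;2 (-0.14 to 0.22), DREB2A (-0.38 to 0.086), RD26 (-0.041 to 0.36), RAP2.2 (-0.23 to 0.16), RAP2.12 (-0.26 to 0.088), KCS20 (-0.35 to 0.0013), RBCS1A (-0.097 to 0.18) and SCR (-0.14 to 0.21). Depth could not be used, since no counts were given.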

Other observations

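Of 133 genes of the plastid genome 68 were tested, 1 rose and 6 fell, beside 12.3% and 5.24% of all genes. Leaving a library out, 0 to 2 rose and 2 to 6 fell. Their median difference was -0.42, against 0.18 over all genes tested. In 18 of the 68 every S library lay below every CT library, beside 11.3% of all genes tested. The second S library stood apart in their sum, at 0.453% of its FPKM, against 0.065% to 0.069% in the other S libraries, through ribosomal RNA genes. Of 152 mitochondrial genes 87 were tested, none rose and 2 fell under control, or 0 to 3 with a library left out. Over the mean of EL, HS and EL+HS backgrounds 62 of them were called lower with salt as deposited, beside 11% of all genes tested, with a median of -0.81, and the median was -1.204 over EL+HS. No mitochondrial gene passed the test of the difference between these responses. All 152 together summed to 76.0, 102 and 51.0 FPKM in the S libraries, against 98.6, 117 and 97.8 FPKM in the CT libraries. A gene was tested if any 3 of the 24 libraries labelled rap2.3 reached 1 FPKM, so it could enter through salt-free stress libraries alone. Such entry favours calls lower with salt, so the count of 62 is not independent of the filter.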
